A study of Homo sapiens with 4 samples.

Results

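PARP9, DTX3L, PARP14, PARP10, PARP12, PARP8, PARP1 and PARP2 were followed across 4 states of THP-1 macrophages. The 8 genes were taken by name: every probe whose platform annotation names 1 of them was kept, which gave 13 of the 47228 probes on the array and 8 of the 20045 genes it covers. The groups were M1 cells, which are M0 macrophages treated with interferon-gamma and lipopolysaccharide (LPS), M2a cells treated with interleukin-4 (IL-4), M2c cells treated with interleukin-10 (IL-10), and the unpolarised M0 cells themselves. All came from THP-1, an established human cell line grown from a monocytic leukemia, so a leukemic line and not blood monocytes stood in for macrophages. The sources used here do not give doses, times or the agent that made M0 macrophages. Each group had 1 Illumina BeadChip array of total RNA, so no difference below has a replicate check, no test was run, and a group cannot be told apart from its array.

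The PARP family transfers ADP-ribose from the cofactor NAD to proteins. PARP1 and PARP2 build chains of it at DNA breaks, where the chains call in repair proteins, whereas PARP8, PARP10, PARP12 and PARP14 add single units. PARP9 has little activity of its own and works with DTX3L, a ubiquitin ligase of the Deltex family. PARP9, DTX3L, PARP10, PARP12 and PARP14 are known interferon-stimulated genes with roles in antiviral defence, and PARP14 was described in mouse cells as a cofactor of STAT6, the transcription factor of the IL-4 response. PARP1, PARP2 and PARP8 are not classed with them. The name "interferon-linked" therefore covers only some of the 8 genes.

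Promoter sequence was looked at first, since interferon responses pass through short DNA elements near gene starts. The RefSeq promoter table (GRCh38.p14) held 10 windows for 7 of the genes, each with 250 bases before an annotated start and 50 from the start on, with 2 windows for PARP9 and 3 for PARP8. They were searched on both strands for a pair of GAAA with any 2 bases between, the core of the interferon-stimulated response element, and for TTCNNNGAA, the core of the gamma-activated site bound by STAT dimers; the 2 motifs can overlap each other. The first motif occurred in 4 windows, those of DTX3L, PARP14, PARP12 and the first start of PARP9, against 3.57% of all 35116 windows in the table (4.38% of 27305 genes). The second occurred in the windows of PARP14 and PARP2, against 7.66% of all windows (9.38% of genes). PARP14 alone among the 7 genes had both, as did 154 windows in the table (0.439%). PARP1 and PARP8 had neither. PARP10 had no window, so its promoter was not searched. A match describes letters in a window and is not a shown binding site.

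PARP9 and DTX3L lie head to head on chromosome 3 and carry the same match on opposite strands. Their start sites lie 38 bases apart and their windows share 137 bases (chr3:122564251-122564387). The 60 bases of chr3:122564301-122564360 are shown on each gene's strand, 5′ to 3′, with the response element core in capitals; the capitals of the PARP9 line are the reverse complement of those in the DTX3L line.
PARP9 (minus strand): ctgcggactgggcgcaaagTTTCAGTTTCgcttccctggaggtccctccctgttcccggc
DTX3L (plus strand): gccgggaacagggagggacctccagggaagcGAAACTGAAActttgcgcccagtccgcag
The core covers positions -41 to -32 of PARP9 and -6 to 4 of DTX3L, counted from each start with the first transcribed base as 1 and the base before it as -1.

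The other windows with a match, those of PARP14, PARP12 and PARP2, are shown over the 250 bases before the start, with matches in capitals. PARP14 (chr3:122680589-122680838, plus strand) carries a gamma-activated site core at -40 to -32 and, without overlap, a response element core at -29 to -20. PARP12 (chr7:140062952-140063201, minus strand) carries a response element core at -10 to -1, directly before its start. PARP2 (chr14:20343385-20343634, plus strand) carries only a gamma-activated site core, at -154 to -146.
PARP14: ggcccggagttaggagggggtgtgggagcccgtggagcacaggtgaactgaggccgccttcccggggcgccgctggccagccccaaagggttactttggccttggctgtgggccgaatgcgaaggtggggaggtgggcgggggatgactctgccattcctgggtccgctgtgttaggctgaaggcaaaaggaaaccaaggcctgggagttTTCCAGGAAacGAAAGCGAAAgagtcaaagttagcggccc
PARP12: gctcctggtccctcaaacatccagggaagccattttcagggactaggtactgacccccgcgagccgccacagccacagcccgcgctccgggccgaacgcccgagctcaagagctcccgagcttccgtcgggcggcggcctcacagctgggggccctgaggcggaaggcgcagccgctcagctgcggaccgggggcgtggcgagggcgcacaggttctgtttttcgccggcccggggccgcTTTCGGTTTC
PARP2: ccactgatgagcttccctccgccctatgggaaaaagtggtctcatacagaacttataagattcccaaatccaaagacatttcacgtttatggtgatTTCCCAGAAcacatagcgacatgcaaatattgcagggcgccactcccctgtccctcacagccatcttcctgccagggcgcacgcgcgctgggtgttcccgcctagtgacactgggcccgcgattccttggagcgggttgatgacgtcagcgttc

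**Figure D1:**
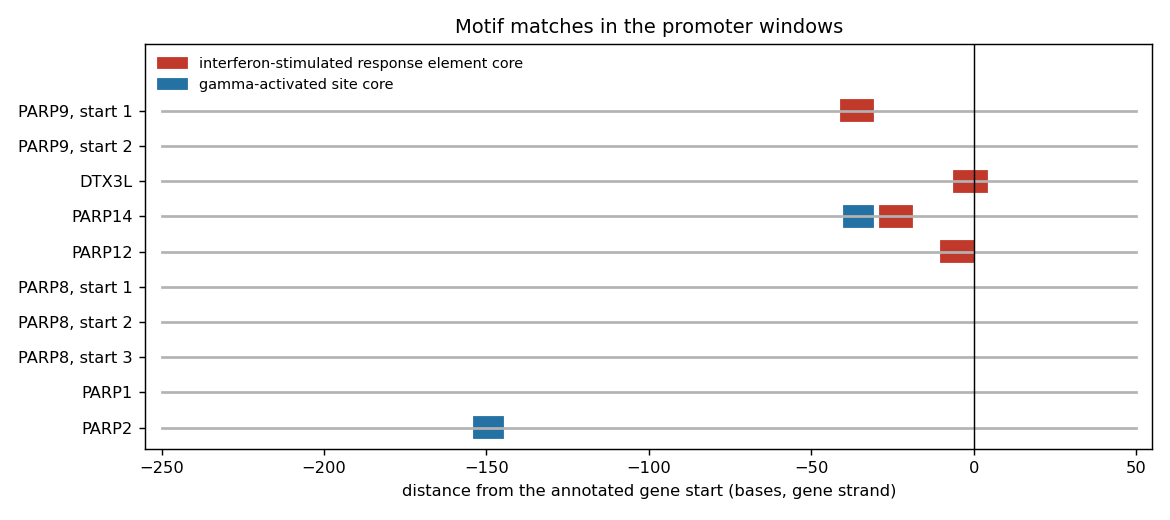
Matches of the interferon-stimulated response element core (red) and the gamma-activated site core (blue) in the 10 promoter windows of 7 genes, drawn on each gene's strand against the distance in bases from the annotated start at 0. Matches of the first kind in PARP9 (start 1), DTX3L, PARP14 and PARP12 all fall within 41 bases of the start.

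Signals are given below as the scanner's linear intensity before normalization, which includes a background of about 100 units, and differences as log2 values after background correction and quantile normalization. A probe was called detected at a detection p below 0.01. A fold given as "at least" is a bound for a probe detected on only 1 of the arrays compared. It holds under that quantile normalization only, and other settings can give a smaller fold. A gene was called higher or lower when its log2 difference was at least 1.0 in size, which is 2-fold, and its probe was detected on at least 1 of the 2 arrays; "rose" and "fell" are used only of genes past that rule. The arrays detected 27.4% to 31.4% of probes, with median raw signals of 102.9 (M1), 110.4 (M2a), 110.9 (M2c) and 110.7 (M0). The cells carried macrophage genes: 9 of 10 fixed macrophage markers were measured, among them CD68, CD14 and CSF1R, and all 9 were detected on all 4 arrays. Markers of lymphocytes, epithelium, fibroblasts, endothelium, red cells and liver were also looked up, 13 of them measured. Of these, 2 were detected on the M1 array, 1 on M2a, 2 on M2c and 2 on M0. The endothelial marker PECAM1 was detected on all 4 arrays, at normalized log2 signals of 10.55 to 10.92. The number detected on no array was 9, including CD3E, EPCAM, COL1A1 and ALB. On the M1 array 4 macrophage markers fell (CD14 by 1.67, CSF1R by 1.53, ITGAM by 1.44 and LYZ by 1.17 on the log2 scale) and SPI1 was 1.06 higher, and the T cell marker CD2 was at least 1.68-fold higher (CSF1R, LYZ and SPI1 passed in 7 of 8 processing settings and CD2 in 4); their part in the results below was not tested. In such whole-culture RNA, fewer cells expressing a gene and less RNA per cell cannot be told apart.

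On the M1 array, after interferon-gamma and LPS, 4 of the 8 genes rose (PARP10, DTX3L, PARP12 and PARP9), 2 fell (PARP2 and PARP1), and PARP8 and PARP14 were higher without passing 2-fold. Over all 9986 genes tested in this comparison, 15.0% were higher and 19.0% lower by the same rule, beside 4 and 2 of the 8 genes. In all genes that passed, 44.0% were higher, against 19.4% with arrays scaled to a common median and 61.3% with a common median of detected probes. The median difference of the 8 genes was 1.08 on the log2 scale, beside -0.18 for all genes tested. The genes were all detected on every array by the probe that stands for them.

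PARP10, a mono-ADP-ribosyltransferase first found as a partner of MYC, had the largest difference of the 8 after quantile normalization (with arrays scaled to a common median PARP2 did, at -2.15 beside 1.60 for PARP10). Its raw signal was 2937.9 on M1, 764.9 on M2a, 1038.6 on M2c and 1044.2 on M0. It stood highest on M1 and lowest on M2a, with M2c and M0 within a few units of each other. The normalized difference of M1 from M0 was 1.87 (3.65-fold), rank 578 from the top of 9986 genes.

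DTX3L, the ubiquitin ligase, had raw signals of 395.0 on M1, 185.5 on M2a, 259.8 on M2c and 239.5 on M0. Its difference of M1 from M0 was 1.74 (3.34-fold), rank 664 from the top. DTX3L was thus higher on M1 by nearly as much as PARP10, but from a dimmer probe whose size depends more on the background correction: the raw ratio of M1 to M0 was 1.65, and in the authors' normalized values the log2 difference was 1.28.

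PARP9, the partner of DTX3L, was read by 2 probes. The brighter one had raw signals of 2232.2 on M1, 654.5 on M2a, 1308.0 on M2c and 1257.3 on M0, and the other had 1392.8, 467.2, 769.9 and 737.7 on the same arrays in that order. Both probes placed M1 highest and M2a lowest, with M2c and M0 close together. The difference of M1 from M0 was 1.16 (2.23-fold) for the brighter probe and 1.40 (2.63-fold) for the other. With arrays scaled to a common median in place of quantile normalization it was 0.91 for the brighter probe, under the threshold.

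PARP12, a mono-ADP-ribosyltransferase with zinc fingers that bind RNA, had raw signals of 1192.8 on M1, 545.1 on M2a, 556.1 on M2c and 612.7 on M0. M1 stood apart from the other 3 arrays, which lay close together. M1 was 2.82-fold above M0 after normalization, rank 845 from the top.

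PARP14, the largest mono-ADP-ribosyltransferase of the group and the neighbour of PARP9 and DTX3L, did not pass on M1. Its raw signals were 537.1 on M1, 249.0 on M2a, 583.2 on M2c and 480.3 on M0, so that M2c and not M1 was brightest before normalization. After normalization M1 was 0.80 above M0 (1.74-fold). The array that stood apart for PARP14 was M2a, the lowest on either scale. Under common-median scaling its M1 excess over M0 was 0.24.

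PARP8, a less studied mono-ADP-ribosyltransferase, lay just under the threshold on M1, as PARP1 lay just past it. PARP8 was detected by 1 of its 4 probes, with raw signals of 267.6 on M1, 224.5 on M2a, 289.1 on M2c and 243.8 on M0. The 3 other probes were not detected on any array. The difference of M1 from M0 was 0.99 after quantile normalization and 0.29 under common-median scaling, so its size rested on the scaling.

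The DNA-break enzymes went the other way. PARP1, which makes most of the poly(ADP-ribose) of a cell, had raw signals of 3116.2 on M1, 7737.4 on M2a, 7064.4 on M2c and 7217.2 on M0. The M1 array was well below the other 3, which lay within a narrow range, and the difference of M1 from M0 was -1.05 (2.08-fold lower). With arrays scaled to a common median over the probes detected on all 4 arrays, an alternative chosen after the data were seen, it was -0.47 and PARP1 did not pass.

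PARP2, which shares the DNA-break role of PARP1, was read by 2 probes. The brighter one had raw signals of 155.6 on M1, 397.1 on M2a, 417.6 on M2c and 424.5 on M0, and the other had 100.3, 179.8, 175.0 and 171.7 on the same arrays in that order. The second probe was at background on M1 (detection p 0.30519). The difference of M1 from M0 was -1.49 (2.81-fold lower) for the brighter probe, and the other was at least 1.53-fold lower.

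**Figure D2:**
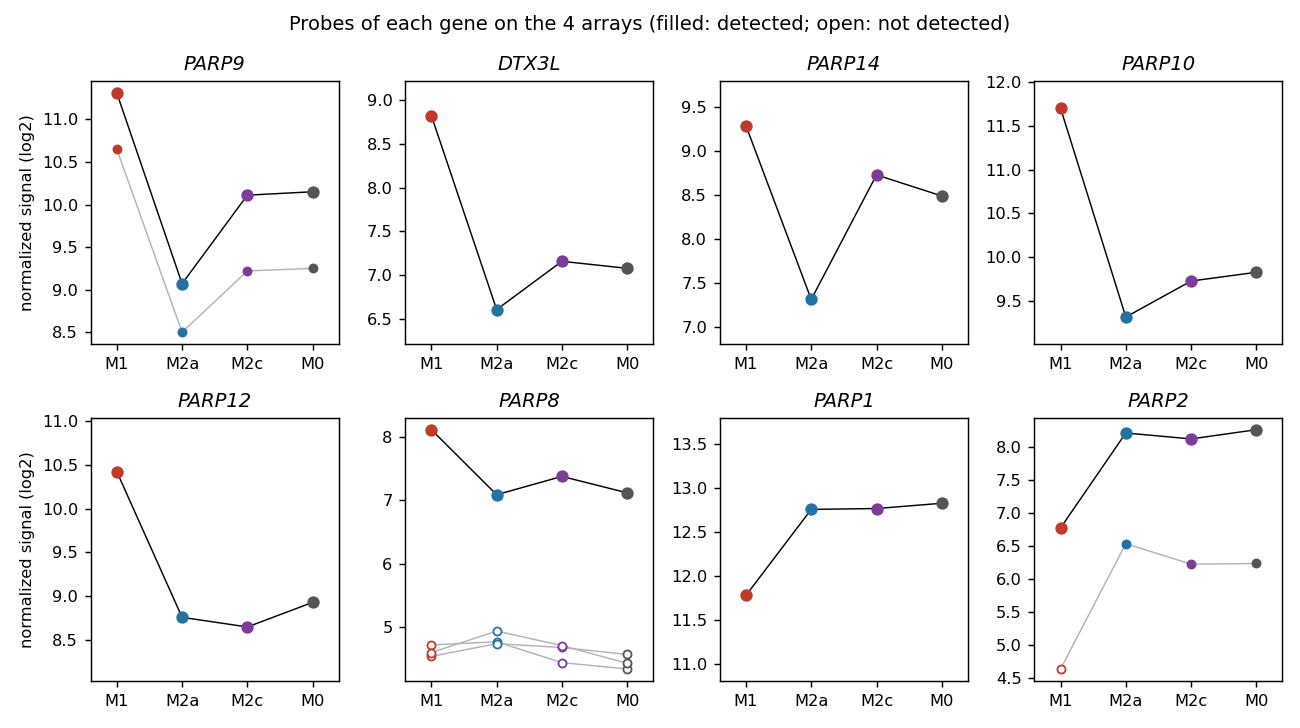
Normalized log2 signal of each of the 13 probes (vertical axis) on the M1, M2a, M2c and M0 arrays (horizontal axis), 1 array per group, so no error bars; filled points were detected, open points were not, and the black line joins the probe that stands for the gene. PARP9, DTX3L, PARP14, PARP10, PARP12 and PARP8 have their highest point on M1, and PARP1 and PARP2 their lowest.

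How far the M1 values can be read depends on how arrays are scaled. The median of all genes tested moved from -0.18 after quantile normalization to -0.66 with arrays scaled to a common median of all probes, and to 0.08 with a common median of the detected probes. Taken relative to the median gene under each of 8 settings, PARP10 was 1.89 to 2.27 higher on M1 than on M0, DTX3L 1.39 to 1.92, PARP12 1.46 to 1.77, PARP9 1.22 to 1.57, PARP8 0.80 to 1.18 and PARP14 0.79 to 0.99. PARP1 was -0.92 to -0.54 and PARP2 -1.48 to -0.90 relative to the same median. In all 8 settings the 5 interferon-stimulated genes and PARP8 thus stood above the median gene, and PARP1 and PARP2 below it. Passing 2-fold depended on the setting for PARP9 (7 of 8), PARP8 (1 of 8) and PARP1 (7 of 8). The 8 settings include the one used throughout and are not independent. Taking off the median gene removes any constant scale difference between arrays, so both common-median settings give the same relative values by construction. Agreement between them is therefore no check on scaling. A detection threshold of 0.05 left the differences of the 8 genes unchanged, and the mean of probes altered only PARP9 and PARP2. The authors' values and those without background correction were nearly the same.

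**Figure D3:**
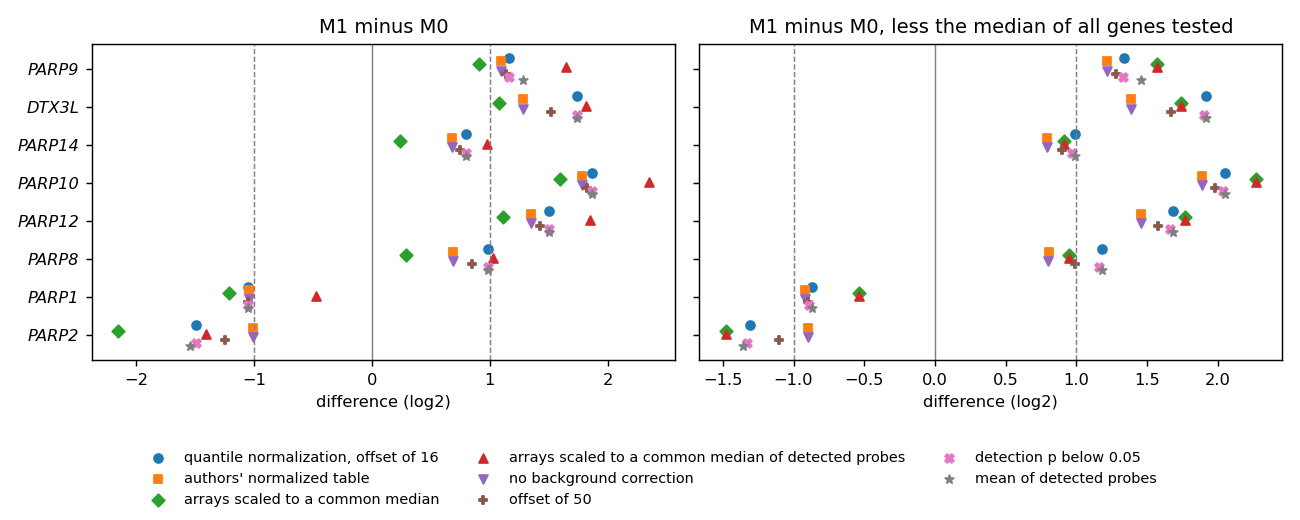
Log2 difference of M1 from M0 for each gene under 8 processing settings (symbols), as measured (left) and less the median of all genes tested under that setting (right); dashed lines mark 2-fold. Relative to the median gene, PARP10 lay between 1.89 and 2.27 and PARP14 between 0.79 and 0.99. Taking off the median removes any constant scale difference between arrays, so both common-median settings coincide on the right by construction.

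On the M2a array, after IL-4, PARP14 and PARP9 fell and none of the 8 genes rose. In all 9860 genes tested, 4.09% were higher and 5.04% lower. All 8 differences were below 0 after quantile normalization, with a median of -0.32 beside -0.01 for all genes. For PARP1 and PARP2, both close to 0, the sign changed with the setting. PARP1 was at 0.09 with arrays scaled to a common median, and PARP2 at 0.13 by the mean of its probes. PARP14 fell by 1.18 in log2 units (2.26-fold), which placed it 303 from the bottom of 9860 genes, and its raw signal was 249.0 on M2a, against 480.3 on M0. PARP9 fell by 1.08, or 2.12-fold, by its brighter probe (654.5 on M2a, against 1257.3 on M0), while its other probe was at -0.75 (467.2 on M2a, against 737.7 on M0) and did not pass. Neither gene passed in the authors' normalized values, where PARP14 was at -0.86 and PARP9 at -0.97.

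Among the other interferon-stimulated members on M2a, PARP10 was at -0.52, DTX3L at -0.47 and PARP12 at -0.16, none past the rule. PARP9 by its brighter probe (-1.08) and DTX3L, whose promoter windows overlap, thus differed in size on M2a. The other PARP9 probe (-0.75) lay nearer to DTX3L, which was read by a dim probe. With 1 array a group the gap has no error estimate. PARP1 (-0.08), PARP2 (-0.04) and PARP8 (-0.03) lay close to the median gene.

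On the M2c array, after IL-10, none of the 8 genes passed in either direction, and their differences from M0 ran from -0.28 (PARP12) to 0.25 (PARP8 and PARP14). Few genes passed at all in this comparison: 0.677% of 9604 were higher and 0.448% lower. The median of the 8 was -0.05, beside -0.01 for all genes. PARP9 (-0.04), DTX3L (0.08), PARP10 (-0.10), PARP1 (-0.06) and PARP2 (-0.13) lay between. The 3 comparisons share the M0 array, so an unusual M0 reading would enter all of them.

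**Figure D4:**
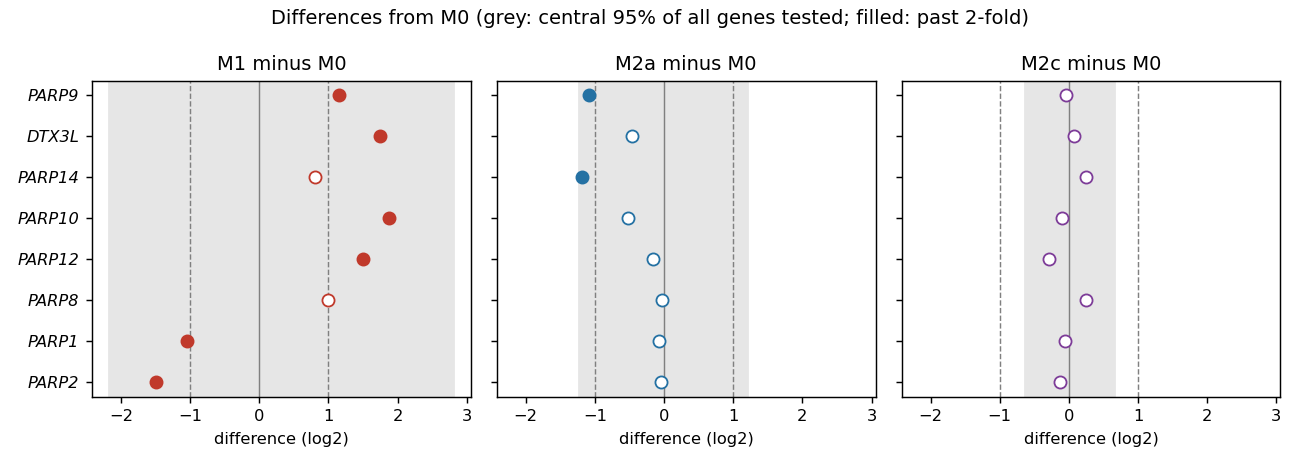
Log2 difference of M1, M2a and M2c from M0 for each gene (points; filled where past 2-fold, dashed lines), with the central 95% of all genes tested shaded in grey. On M1 the points run from -1.49 (PARP2) to 1.87 (PARP10), on M2a from -1.18 (PARP14) to -0.03 (PARP8), and on M2c from -0.28 to 0.25.

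Between the polarised states the contrast was widest for M1 against M2a, where 6 of the 8 genes were higher, PARP2 was lower and PARP1 did not pass, against 15.7% higher and 18.0% lower of 9791 genes. PARP10 was 2.39 higher (5.23-fold), PARP9 2.24 (4.73-fold), DTX3L 2.21 (4.61-fold), PARP14 1.98 (3.94-fold), PARP12 1.66 (3.16-fold) and PARP8 1.03. PARP2 was at -1.45 and PARP1 at -0.98. PARP10, PARP9, DTX3L, PARP14 and PARP12 passed 2-fold in all 8 settings, with PARP14 between 1.54 and 2.17, whereas PARP8 did in 4. M1 and M2a thus lay more than 2-fold apart for all 5 interferon-stimulated genes, PARP14 included.

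M1 against M2c had 4 genes higher and 1 lower, beside 16.3% and 21.4% of 9676 genes. PARP10 (1.97), PARP12 (1.77), DTX3L (1.66) and PARP9 (1.20) were higher and PARP2 (-1.36) lower, and PARP8 (0.74), PARP14 (0.56) and PARP1 (-0.99) did not pass. DTX3L (0.95) and PARP9 (0.90) lost the call under common-median scaling, and PARP2 (-0.91) lost it in the authors' table and without background correction. M2a against M2c had 2 genes lower, PARP14 at -1.42 and PARP9 at -1.04, and 0 higher, beside 6.98% lower and 4.81% higher of 9607 genes. PARP14 was lower on M2a than on M2c by more than 2-fold in all 9 settings run, and PARP9 in 4 of them.

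Across the 4 arrays M1 was the highest for 6 genes and the lowest for PARP1 and PARP2, and M2a was the lowest for 5. Scaling to a common median put M1 below M2c for PARP14 (-0.03) and PARP8 (-0.02). M0 and M2c neighboured each other in the order of PARP9, DTX3L, PARP14, PARP10, PARP8 and PARP1; with no replicates the spread needed to separate such neighbours is unknown. Likeness of pattern was measured as the distance between the 4 log2 values of 2 genes after each gene's mean was taken off. By that measure DTX3L was closest to PARP10 (0.22), PARP9 to PARP14 (0.46) and PARP1 to PARP2 (0.38), while PARP9 and DTX3L lay 0.54 apart. The PARP9 distances used its brighter probe only. Its other probe differed from M0 by 1.40 on M1 and -0.75 on M2a, nearer to DTX3L (1.74 and -0.47) than the brighter probe was. Whether PARP9 is closer to PARP14 or to DTX3L thus depends on the probe, and distances for the other probe were not computed. Among the 7384 genes detected on all arrays, the nearest outside the 8 to PARP9 were DDX60L (0.06), NBN (0.12) and EPSTI1 (0.14), and those to PARP14 were GTF2B (0.13), CCDC125 and MNDA (both 0.15). The nearest to DTX3L were KLF6 (0.07), H2BC5 and ACSL1 (both 0.08), to PARP10 TRIM56 (0.13), KLF6 (0.17) and CSRP2 (0.19), and to PARP12 BRSK1 (0.06), H1-10 (0.07) and OGFR (0.08). For PARP8 they were TRIM13, GPANK1 and SLC35E1 (0.07 to 0.11), for PARP1 SAE1, MRPS21 and SLC35E2B (0.03 to 0.05), and for PARP2 PLXDC2, SPRY2 and CD163L1 (0.05 to 0.06). With 4 points per gene such nearness describes these arrays only.

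The rest of the PARP family did not pass against M0 by the probe that stands for each gene. Of 10 further members 6 were tested on M1 against M0, and 0 passed in either direction (median 0.04, beside -0.18 for all genes). TNKS, a tankyrase that makes chains, was at 0.81, PARP16 of the endoplasmic reticulum, not detected on M1, at -0.66 and ZC3HAV1, also called PARP13, an antiviral RNA-binding protein without ADP-ribosyltransferase activity, at -0.46. None of 7 passed on M2a, where TIPARP, an aryl hydrocarbon receptor target, was at -0.93, or of 6 on M2c. Under common-median scaling ZC3HAV1 passed as lower on M1 (-1.02), and by the mean of its probes as higher (1.56). Between polarised states TIPARP was 1.34 higher on M1 than on M2a (2.54-fold, past 2-fold in 7 of 8 settings). TNKS was at least 1.66-fold higher on M1 than on M2c (4 of 8 settings). Its probe lay near background throughout, with raw signals of 133.4 on M1, 126.2 on M2a, 124.5 on M2c and 131.2 on M0. PARP11, PARP15 and TNKS2 were not detected on any array.

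ZC3HAV1 was the exception among probes, noticed after its values were seen. Its brightest probe had raw signals of 431.2 on M1, 639.0 on M2a, 734.5 on M2c and 809.0 on M0. Its other 2 probes had 1117.0 and 1070.9 on M1, 335.5 and 376.1 on M2a, 315.8 and 289.5 on M2c, and 322.3 and 334.2 on M0. These 2 probes were 2.63 and 2.49 higher on M1 than on M0, larger than the difference of any of the 8 genes, while the brightest probe was lower. The gene is known to make a long and a short isoform; which transcripts each probe reads was not analysed here.

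Of 9 listed genes that take ADP-ribose off proteins, 7 had probes and 4 were tested on M1 against M0. Over the whole array, 10395 of 20045 genes were detected on at least 1 array. ADPRS, a hydrolase that removes ADP-ribose from serine, rose by 1.35 (2.55-fold), and NUDT16, which can trim ADP-ribose to a phosphate remnant, was at least 1.08-fold lower (log2 difference -1.02), beside 15.0% of all genes higher and 19.0% lower. ADPRS lost the call with arrays scaled to a common median (0.91), and NUDT16 passed in 4 of 8 settings and not in the authors' table (-0.36). GDAP2, also not detected on M1, was at -0.55. PARG, the main enzyme that degrades the chains, MACROD1 and MACROD2 were not detected on any array, and 0 of 4 passed on M2a or M2c.

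Genes that supply or use NAD, the substrate of the PARP enzymes, passed in both directions on M1. Of 10 tested, 3 rose and 2 fell (median -0.08, beside -0.18 for all genes, of which 15.0% were higher and 19.0% lower). CD38, a surface enzyme that consumes NAD, rose by 5.44 (43.3-fold), NAMPT, the rate-limiting enzyme of NAD salvage, by 2.89 (7.44-fold, and 2.78 for its other probe) and NADK, which phosphorylates NAD, by 1.81 (3.51-fold). NMNAT3, at least 3.19-fold lower (log2 difference -1.06 for its other probe), and QPRT (-1.14), both enzymes of NAD synthesis, were the 2 that fell. Both were picked for mention once their values were known. CD38, NAMPT and NADK passed in all 8 settings, NMNAT3 in 6 (-0.86 in the authors' table) and QPRT in 7. On M2a SIRT1, an NAD-dependent deacetylase, fell by 1.11 and its relative SIRT6 was at least 1.91-fold higher, out of 11 tested, beside 4.09% higher and 5.04% lower of all genes; neither passed in the authors' table (-0.64 for SIRT1 and 0.46 for SIRT6). On M2c 0 of 10 passed.

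DTX2, another Deltex ubiquitin ligase, was the only 1 of 4 listed relatives of DTX3L to be detected. It rose by 2.32 on M1 against M0 (5.00-fold, and 2.08 for its other probe), and was at 0.42 on M2a and 0.09 on M2c. Among partners of PARP1 in single-strand break repair, 2 of 7 tested fell on M1 and 0 rose (median -0.07, beside -0.18 for all genes), near the 19.0% lower of all genes. CHD1L, a chromatin remodeller that binds poly(ADP-ribose), fell by 1.27, and HPF1, which directs PARP1 to serine, was at least 1.84-fold lower. TDP1, which clears trapped topoisomerase from DNA, was at 0.87 by 1 probe and -0.91 by the other. The authors' normalized values had 0 of these 7 genes past the rule, and 0 of 7 passed on M2a or M2c.

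Kinases and transcription factors of the cytokine pathways were the last list, with 10 of 12 genes tested. On M1 5 rose and 0 fell (median 0.97), beside 15.0% higher and 19.0% lower of all genes. IRF1, which binds interferon response elements, rose by 3.99 (15.9-fold), IRF7 by 3.18 (9.09-fold) and IRF2 by 1.87 (3.66-fold). JAK2 (1.55) and STAT6 (1.04) were the other two, picked for mention in the same way. IRF1, IRF7 and IRF2 passed in all 8 settings, JAK2 in 5 and STAT6 in 4; neither JAK2 (0.86) nor STAT6 (0.91) passed in the authors' table, and under common-median scaling, where they did not pass either, IRF8 passed as lower (-1.29). On M2a IRF7 fell by 1.41 (-1.12 for its other probe) and IRF2 by 1.23 (-0.29 for its other probe), the 2 factors of 10 that passed, beside 5.04% lower of all genes. IRF7 passed in all 9 settings and IRF2 in 5, not in the authors' table (-0.65). STAT6 was at 0.25 there. On M2c 0 of 10 passed, with IRF1 at -0.47, IRF8 at 0.44 and IRF2 at -0.43. By the probes that stand for them, IRF7, IRF2, IRF9 and JAK1 had the array order of PARP9 and PARP10, from M1 through M0 and M2c down to M2a. Several steps in that order were small. M2c differed from M0 by only -0.04 for PARP9 and -0.10 for PARP10, and M2a from M2c by -0.01 for IRF9.

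**Figure D5:**
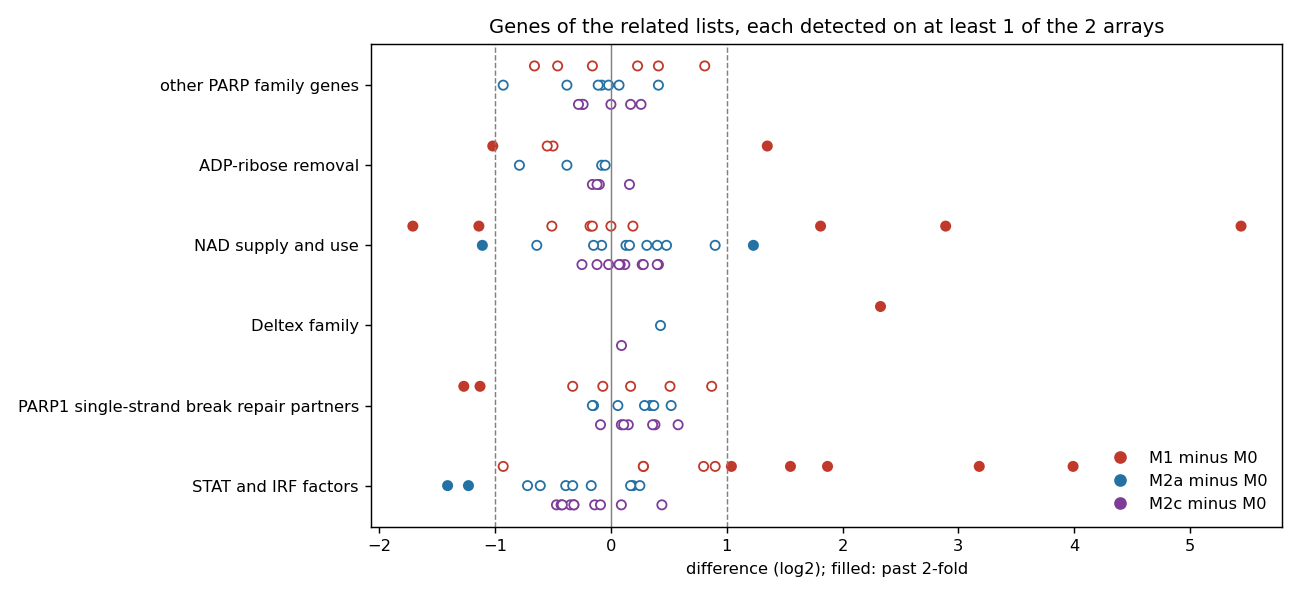
Log2 difference of M1 (red), M2a (blue) and M2c (purple) from M0 for each gene of the 6 related lists that was detected on at least 1 of the 2 arrays; filled points passed 2-fold (dashed lines). CD38 lies farthest out at 5.44, the other PARP family genes all lie inside 2-fold, and 0 points of M2c are filled. Each gene is drawn by the probe that stands for it, so the ZC3HAV1 probes at 2.63 and 2.49 on M1 are not shown.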

How the data were processed

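Total RNA of 4 THP-1 macrophage cultures was read on Illumina BeadChips after biotin labelling of cRNA. For each probe and array, the authors deposited an intensity before and after their own normalization and a detection p-value, per the file headers, and a value table. GenomeStudio is named in the submitters' processing notes, with no version. The value table and the normalized table differed in 0 cells. Each detection p column was taken with the intensity column before it; the rank correlation was at least 0.99 in size with its own array and at most 0.86 with another.

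Non-normalized intensities were background-corrected with limma 3.58.1 in R 4.3.3 (normexp, negative controls inferred from detection p-values, offset 16), quantile normalized and put on the log2 scale. The offset shrinks differences of dim probes. Symbols came from the platform annotation (30111 probes with 1 symbol, 8 with several, 17109 unnamed here), 30072 of them updated through Entrez identifiers. The probe with the highest mean stood for each gene. Where only 1 of 2 arrays detected a probe, the fold is a bound against the lowest detected signal or the probe's own value, whichever is higher. Such a bound holds under the main normalization only and can exceed the fold under another setting. The text names all 8 genes with every probe, up to 3 genes per list and comparison by size of change, and 3 nearest genes per gene. The genes and lists were chosen with earlier results of these data known. The 6 pairs of groups were compared without a test. The call rule was run on simulated arrays drawn from the M0 profile, with changes set in some bright probes of the M1 array. No difference in scale between arrays was simulated, so that run cannot speak to how scaling affects the M1 calls. Alternatives changed the table, scaling, background, offset, detection threshold, probe rule and arrays used. Listed genes without values were not analysed here.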

Additional observations from a re-analysis of the deposited data

How the results depend on the processing

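Of 360 recomputed differences of the 8 genes, 334 kept their side of 2-fold, 23 fell below it, 3 passed it newly and 0 past the rule changed sign. Part of the 334 could not change, because the alternative detection threshold leaves these differences as they are. The mean of probes alters only PARP9 and PARP2. Members past the rule, M2a against M0 (2), numbered 0 in the authors' table and without background correction, and 1 by the mean of probes or the detected-probe median. M1 against M2a (7) had 5 (5 higher, 0 lower) in the authors' table and without background correction, and 7 (5 and 2) with a common median. M1 against M2c (5) had 4 (4 and 0) in the authors' table and without background correction, and 4 (2 and 2) with a common median. M2a against M2c (2) had 1 in the authors' table, without background correction, with an offset of 50, by the mean of probes and with the detected-probe median, and M1 against M0 (6) had 6 (5 and 1) with the last.

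Counts over all genes in the authors' table were 1643 for M1 against M0 (3396 by the main method), 295 for M2a against M0 (900), 24 for M2c against M0 (108), 1622 for M1 against M2a (3301), 1818 for M1 against M2c (3655) and 349 for M2a against M2c (1133). Without background correction they were 1641, 295, 24, 1623, 1817 and 347 in that order, and with an offset of 50 they were 2291, 467, 42, 2233, 2528 and 565. With a common median they were 4341 for M1 against M0, 4054 for M1 against M2a and 4570 for M1 against M2c. With the detected-probe median, added after seeing the data, they were 3196 for M1 against M0 and 3454 for M1 against M2c. The share of higher genes among those called moved for M1 against M2a to 23.5% and 61.7% with these 2 scalings (46.7%), and for M1 against M2c to 19.1% and 60.2% (43.2%). With a common median it was 34.3% for M2a against M0 (44.8%) and 27.5% for M2a against M2c (40.8%). In the authors' table it was 57.6% for M2a against M0, 83.3% for M2c against M0 (60.2%) and 51.0% for M2a against M2c. No paired analysis was possible because each group has 1 array, and for the same reason no replicate could be left out. Dim probes such as those of DTX3L, PARP8 and PARP2 lie near background, which limits the precision of their folds.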

Other observations

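The genes around PARP9, DTX3L and PARP14 on chromosome 3 were looked up in the order of the RefSeq annotation after the values above were known. HSPBAP1, the next measured gene after PARP14, was 2.23 higher on the log2 scale on M1 than on M0, and on M2a, where it was not detected, at least 1.31-fold lower. PARP15, which lies between DTX3L and PARP14, was not detected on any array. On the other side KPNA1, an importin that carries proteins into the nucleus, was at 0.42 on M1 and 0.21 on M2a, CSTA at 0.22 and -0.02, and FAM162A at -1.48 and 0.23. MIX23, on the same side and not detected on M1, was at least 3.44-fold lower there than on M0, and at -0.89 on M2a. WDR5B was detected on M2c only. SLC49A4, beyond HSPBAP1, was at 0.51 on M1 and 1.12 on M2a. The neighbours of the gene cluster thus had values in both directions.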
